A study of Actinidia chinensis with 12 samples.

Results

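In ripened fruit of the kiwifruit cultivar Jinyan, 58 genes had lower counts in the flesh core than in whole fruit. In the cultivar Hongyang the same genes had a ratio of core to whole fruit from 0.67 to 1.5, with a median of 0.802, on the group medians defined below. They were chosen on the measured values from 39040 gene identifiers, of which 22199 carried enough counts to be tested. Levels are given as CPM, counts divided by the TMM-scaled size of their library as edgeR's cpm gives them, and M denotes a group's median CPM plus 1. A member had an M in Jinyan whole fruit at least 4 times that in Jinyan core and an M of at least 6 in Jinyan whole fruit. In Hongyang its M was at least 2 in both tissues, and the ratio of core to whole fruit lay between 0.67 and 1.5. Of 287 genes that met the Jinyan conditions, 74 had such a Hongyang ratio and 58 of these reached the Hongyang minimum. A further condition, which drops genes that differ at least 8-fold between the cultivars in the same direction in both tissues, removed 0 genes. The tissue ratios within each cultivar are therefore what chose the members, and they are given as a description with no test.

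The study sequenced poly(A) RNA from fruit just harvested from trees, in 4 groups of 3 libraries: whole fruit of Jinyan and of Hongyang, and flesh core of each. The labels name no treatment and give no age of the fruit or number of fruits behind a library. The samples other than core are labelled as whole fruit, although the series design names the periphery of the fruit, so core tissue may be part of them. The labels do not state whether replicates are separate fruits or trees, and a p-value here speaks of the spread between libraries, which may be technical.

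A kiwifruit is a berry in which a hairy skin and a fleshy outer pericarp surround an inner pericarp with seeds and a pale central core, the columella. Hongyang is a red-fleshed Actinidia chinensis cultivar that deposits anthocyanin around the core. Jinyan is a yellow-fleshed cultivar bred from a cross of Actinidia eriantha with Actinidia chinensis. The core holds neither skin nor the bulk of the seeds, so a gene read from those parts is sampled in whole fruit and not in core. In bulk tissue, fewer cells of a type and less RNA per cell cannot be told apart. The identifiers come without gene names, so no member is given a function, and the labelled tissues could not be checked against marker genes.

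Library totals ran from 6870519 to 21222578 counts in 11 libraries and were 1888744 in Hongyang whole fruit replicate 3, where 1 count was worth 0.397 CPM. Within each of the other groups replicates correlated at a Spearman rho of at least 0.966 across genes. In Hongyang whole fruit, replicates 2 and 3 correlated at 0.833, and replicate 2 reached 0.955 with a Hongyang core library. Hongyang whole fruit is thus the group whose libraries stand apart from each other, and the main counts that rest on it are also given without single libraries of it.

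Most members were of low to moderate abundance. In Jinyan whole fruit M ran from 6.09 to 446 with a median of 17.9, with 9 members under 10, 23 from 10 to 20, 22 from 20 to 50, 1 from 50 to 100 and 3 at 100 or more. The 3 most abundant there were Achn262221, Achn159591 and Achn098831, singled out after their values were seen. In Jinyan core M ran from 1 to 108 with a median of 2.78. In Hongyang the medians over members were 9.98 for whole fruit and 8.76 for the core, both between the Jinyan values. Over all tested genes the corresponding medians were 8.15 and 7.78 in Jinyan whole fruit and core, and 8.94 and 8.62 in Hongyang.

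The members together summed to 1652, 1918 and 1568 CPM in the 3 Jinyan whole fruit libraries and to 357, 253 and 298 CPM in the Jinyan core. In Hongyang whole fruit the sums were 1335, 950.3 and 1671 CPM in replicates 1, 2 and 3. They were 863, 1187 and 975 CPM in the Hongyang core. Jinyan core stood apart as the low group, as the rule requires, while the Hongyang whole fruit libraries covered a range that took in part of the Hongyang core and part of Jinyan whole fruit. The median member showed the same order in Hongyang whole fruit, at 8.91, 5.27 and 17.9 CPM in replicates 1, 2 and 3, against 7.27, 9.66 and 7.65 CPM in the core.

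**Figure D1:**
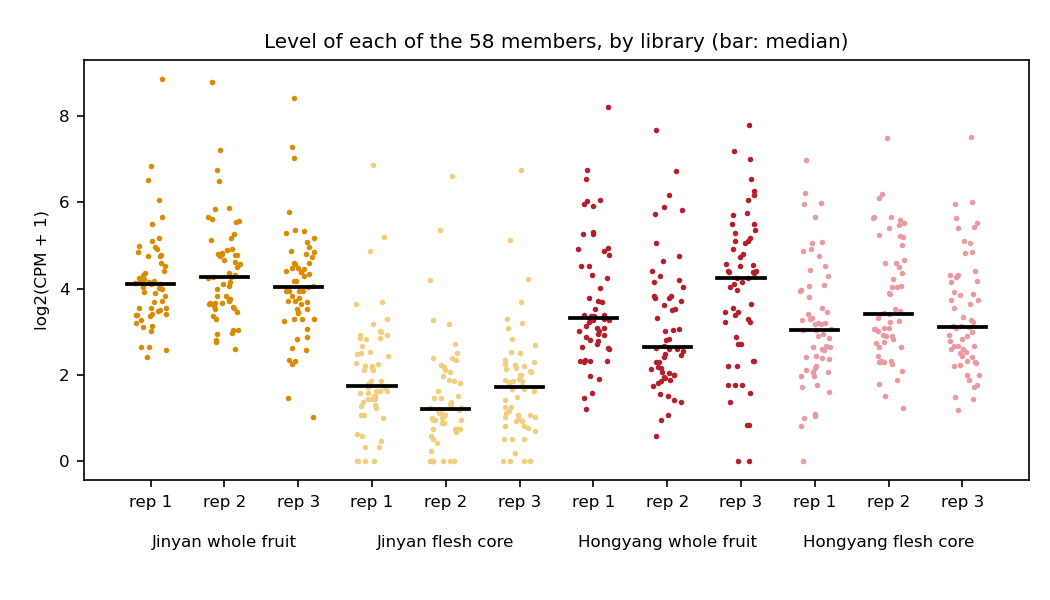
Level of the 58 members in each library as log2(CPM + 1); each point is a member and the bar is the median over members. The Jinyan core libraries are the lowest, and Hongyang whole fruit replicate 3 (median 17.9 CPM) and replicate 2 (median 5.27 CPM) lie on opposite sides of the Hongyang core.

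In Jinyan, M was 4.01 to 19.2 times higher in whole fruit than in core, with a median of 5.24. The ratio was under 5 for 25 members, from 5 to 8 for 23, from 8 to 16 for 7 and 16 or more for 3. The member closest to the limit had 4.01, and the nearest gene that met every other condition but missed this limit had 3.95. For 57 of the 58, no Jinyan core library reached a Jinyan whole fruit library, against 22.2% of all tested genes. The exception was Achn159771, with 1.02 CPM in whole fruit replicate 3 and 1.51 CPM in core replicate 2. The edgeR fit over all 12 libraries called 57 members lower in the core, against 8.46% of all tested genes, and left out Achn065901 (adjusted p = 0.062 by edgeR). Both shares follow from the rule and nothing is read from them.

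Achn087081 had the largest Jinyan ratio of M. It stood at 30.0, 35.1 and 14.4 CPM in Jinyan whole fruit and at 1.84, 0.586 and 0.619 CPM in Jinyan core. The Jinyan groups did not overlap, and the ratio of M was 19.2. In Hongyang it had 12.7, 16.9 and 3.97 CPM in whole fruit and 9.64, 36.4 and 18.3 CPM in core. The Hongyang groups overlapped, and 1 core library exceeded every Jinyan library.

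Achn233741 had the next largest ratio of M, 18.0. It stood at 17.0, 57.9 and 14.5 CPM in Jinyan whole fruit and had 0 counts in each Jinyan core library. In Hongyang its values were 8.72, 17.3 and 10.7 CPM in whole fruit and 3.47, 48.7 and 13.7 CPM in core. Replicate 2 was the highest library in Jinyan whole fruit and in both Hongyang groups.

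Of the 58 members, 4 had 0 counts in all 3 Jinyan core libraries: Achn233741, Achn273241, Achn266931 and Achn009121. Set against 3 counts over those libraries, they were at least 409-fold, 198-fold, 133-fold and 113-fold lower in the Jinyan core than in Jinyan whole fruit. Without Jinyan whole fruit replicate 2 the bound for Achn233741 was 222-fold. Without Jinyan core replicate 1 it was 123-fold for Achn273241, 82.3-fold for Achn266931 and 69.7-fold for Achn009121, since fewer counts then stand behind the 0. Only 5 other members had 0 counts in any Jinyan core library. All 4 were detected in both Hongyang tissues, although Achn009121 had 0 counts in Hongyang whole fruit replicate 3.

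**Figure D2:**
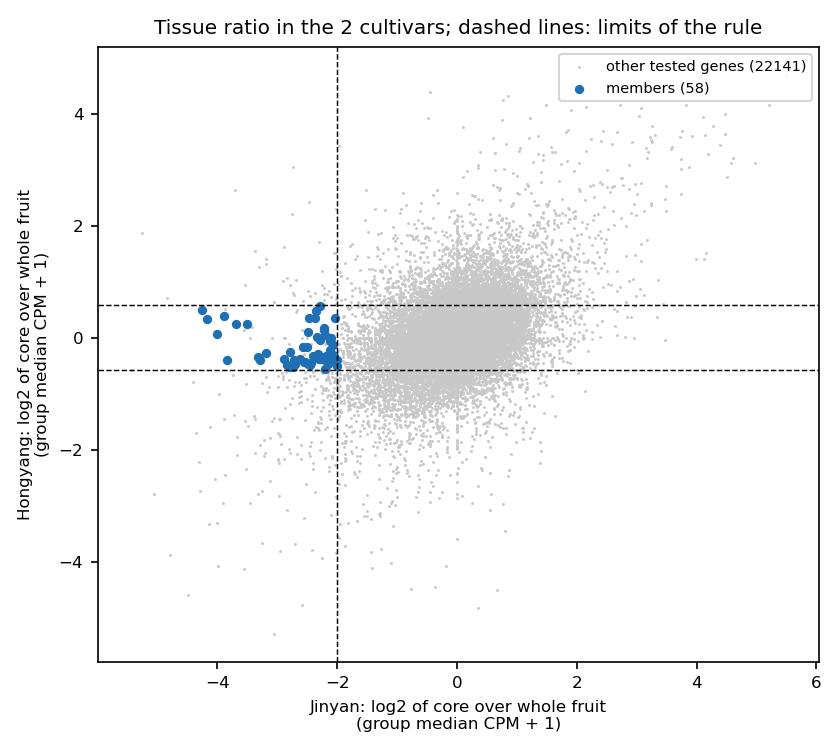
Log2 ratio of core to whole fruit (M, the group median CPM plus 1) in Jinyan on the horizontal axis and in Hongyang on the vertical axis, for the 58 members (blue) and the other tested genes (grey). Dashed lines mark the limits of the rule, where Jinyan whole fruit is 4 times the core and at Hongyang ratios of 0.67 and 1.5. Most members lie near the Jinyan limit and below equality in Hongyang.

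In Hongyang, the ratio of M in core to whole fruit ran from 0.678 to 1.48 with a median of 0.802. It was under 1 for 42 members and over 1 for 16, a split that turned to 27 and 31 without Hongyang whole fruit replicate 3, when the median ratio was 1.01. Just outside the window, the nearest genes that met the other conditions had ratios of 0.667 and 1.52. The same Jinyan conditions and Hongyang minimum with a Hongyang ratio under 0.67 were met by 142 genes, and with a ratio over 1.5 by 32 genes. The edgeR fit called 0 of the 58 members between the Hongyang tissues, against 4.68% of all tested genes. In that fit 3 members had an unadjusted p under 0.05, against 5055 of the 22199 tested genes. DESeq2 called 0 against 11.7% of all tested genes, and limma voom with sample weights called 4 against 27.5%. Without Hongyang whole fruit replicate 2, edgeR called 9 of the 58 against 19.2% of all genes in that fit. The rule fixed this contrast too, and the counts are a description.

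The Hongyang window was met by group medians rather than by single libraries. For 8 of the 58 members all 3 Hongyang whole fruit libraries lay within 0.67 to 1.5 times the M of the Hongyang core, with 1 added to each CPM. Without replicate 1, 2 or 3, the libraries that remained did so for 11, 12 and 27 members. Replicate 3 lay above that window for 30 members and below it for 13. Replicate 2 lay above it for 4 and below it for 22, and replicate 1 lay above it for 4 and below it for 1. No share over all tested genes stands beside these window counts, so they do not set the members apart from other genes. In 22 members (37.9%) the highest Hongyang whole fruit library exceeded the lowest at least 4-fold on CPM + 1, against 10.3% of all tested genes. This fell to 1 member without replicate 3 (0.432% of all genes) and to 5 without replicate 2 (4.55%). The same spread was seen in 5 members (8.62%) in Hongyang core against 0.770%, in 2 (3.45%) in Jinyan whole fruit against 0.369%, and in 0 in Jinyan core against 0.275%. The Hongyang core libraries lay below those of whole fruit without overlap for 1 member, Achn026311, against 10.5% of all tested genes. They lay above without overlap for 0 members, against 14.4%.

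Most members followed 1 of 2 opposite orders in Hongyang whole fruit. In 32 members (55.2%) replicate 3 was the highest and replicate 2 the lowest, against 21.9% of all tested genes. In 10 members (17.2%) replicate 2 was the highest and replicate 3 the lowest, against 32.6% of all tested genes. Replicate 1 was the middle library in these 42 members, and its value set their Hongyang whole fruit median. The remaining 16 members had another order. These classes were formed after the values were seen and carry no test.

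Over the 32 members with replicate 3 highest, the median values in Hongyang whole fruit replicates 1, 2 and 3 were 9.27, 4.96 and 23.8 CPM. In the Hongyang core they were 8.10, 7.40 and 7.69 CPM. In Jinyan whole fruit they were 16.3, 17.3 and 19.2 CPM, and in Jinyan core 2.54, 1.46 and 2.79 CPM. Replicate 3 of Hongyang whole fruit was thus above the Jinyan whole fruit medians, replicate 2 was below the Hongyang core, and both Jinyan groups were tight.

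Achn000221, singled out after its values were seen, showed the widest spread of this kind. It stood at 9.45, 0.938 and 51.6 CPM in Hongyang whole fruit and at 7.23, 8.34 and 6.58 CPM in Hongyang core. In Jinyan it had 16.1, 21.5 and 23.3 CPM in whole fruit and 1.72, 0.837 and 1.24 CPM in core. Its median in Hongyang whole fruit, from replicate 1, lay beside the core values, while replicates 2 and 3 lay on either side of all 3. Along with Achn065901, Achn082941 and Achn249491, it was among 4 members whose replicate 3 value was at least 4 times the M of the Hongyang core. On CPM + 1, replicate 3 exceeded replicate 2 at least 4-fold in 18 members, and the smallest count behind such a replicate 3 value was 21. No share over all tested genes stands beside the 4 or the 18, so they do not set the members apart from other genes. Whether tissue makeup, depth or RNA quality of these libraries has a part in the pattern was not tested.

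The 10 members with replicate 2 highest had medians of 5.27, 9.90 and 2.18 CPM in Hongyang whole fruit and of 4.33, 14.6 and 5.47 CPM in Hongyang core. Their medians were 14.6, 26.5 and 14.7 CPM in Jinyan whole fruit and 1.59, 0.795 and 1.03 CPM in Jinyan core. Replicate 2 was the highest library in 3 of the groups and the lowest in Jinyan core. In the core, replicate 2 was the highest Hongyang library for 9 of these 10 members and for 4 of the 32 with the opposite order. Over all 58 members it was the highest core library in 22 (37.9%), near the 34.5% of all tested genes. On CPM + 1, whole fruit replicate 2 exceeded replicate 3 at least 4-fold in Achn041411 and Achn187281 of this class, and in Achn164601, which had another order and 0 counts in replicate 3.

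Achn041411 stood at 20.1, 49.3 and 22.8 CPM in Jinyan whole fruit and at 1.10, 0.921 and 1.38 CPM in Jinyan core. In Hongyang it had 5.02, 12.7 and 0.794 CPM in whole fruit and 3.32, 15.4 and 6.15 CPM in core. Achn187281 stood at 11.8, 26.9 and 15.8 CPM in Jinyan whole fruit and at 8.74, 35.4 and 12.4 CPM in Hongyang core. For both genes replicate 2 was the highest library in Jinyan whole fruit, Hongyang whole fruit and Hongyang core, and the lowest in Jinyan core. The replicate 3 values in Hongyang whole fruit were 2 and 5 counts for these genes and are imprecise.

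**Figure D3:**
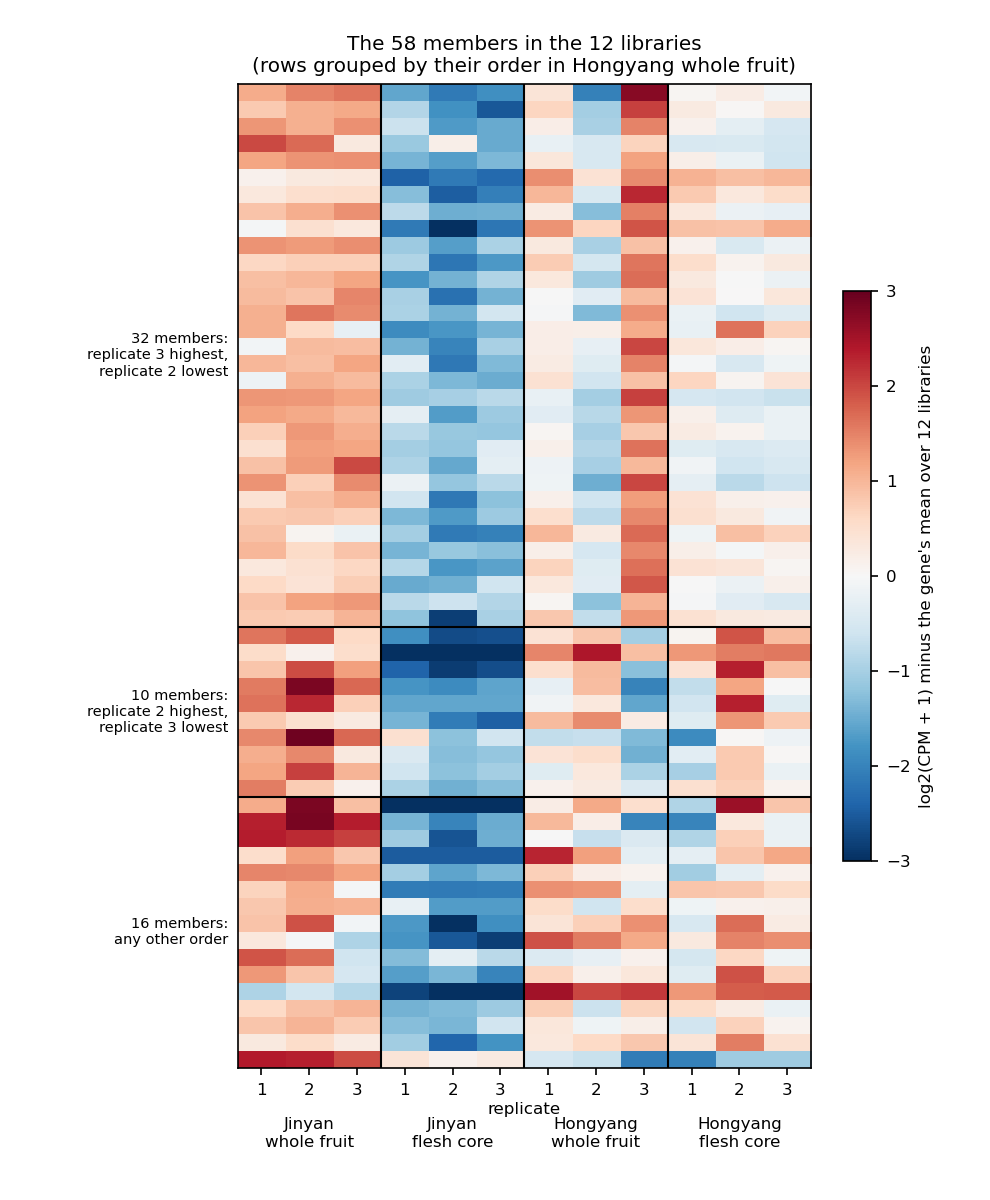
The 58 members (rows) in the 12 libraries (columns), coloured by log2(CPM + 1) minus the gene's mean over the libraries, with values beyond the ends of the scale drawn in the end colours. Rows are grouped by the order of the replicates in Hongyang whole fruit: 32 members have replicate 3 highest and replicate 2 lowest, 10 the reverse and 16 another order.

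Across the 58 members, the log2 ratio of replicate 2 to replicate 3 in Hongyang whole fruit followed the log2 ratio of replicate 2 to the mean of replicates 1 and 3 in Hongyang core (Pearson r = 0.672, Spearman rho = 0.720). Over the 22199 tested genes the same coefficients were 0.124 and 0.135. The core ratio also followed the corresponding ratio in Jinyan whole fruit among the members (r = 0.673, rho = 0.542), and over all tested genes at 0.0382 and 0.0249. All members share the same libraries and their depths, and genes are not independent, so these are descriptions with no p. Replicate 2 was the highest in Jinyan whole fruit, Hongyang whole fruit and Hongyang core at once in 8 members (13.8%), against 6.31% of all tested genes.

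**Figure D4:**
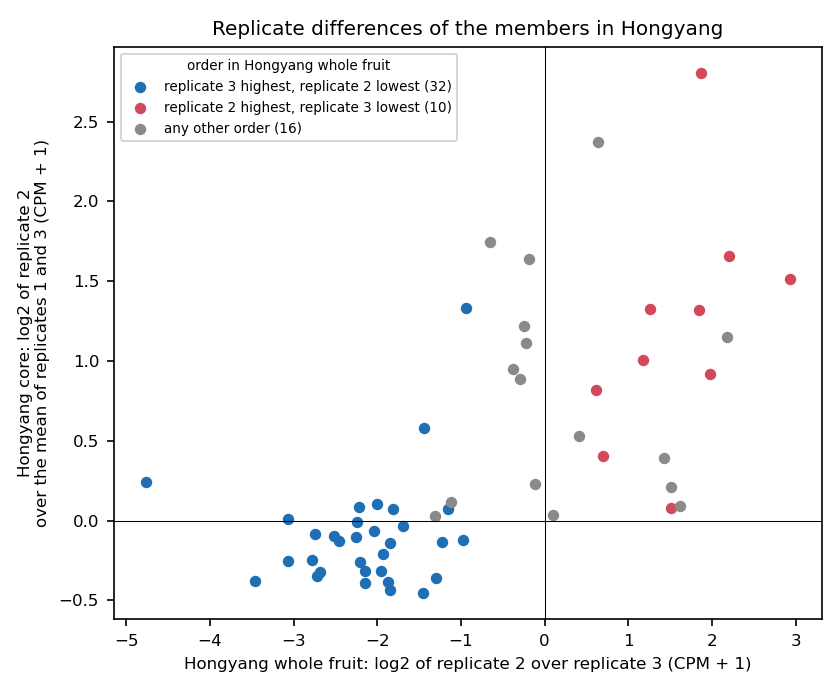
Each point is a member: the horizontal axis gives log2 of replicate 2 over replicate 3 in Hongyang whole fruit and the vertical axis log2 of replicate 2 over the mean of replicates 1 and 3 in Hongyang core, both on CPM + 1. The 32 members with replicate 3 highest lie to the left and mostly near 0 on the vertical axis, and the 10 members with replicate 2 highest lie to the right and above 0.

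The level at which the Hongyang medians sat relative to Jinyan was not set directly by the rule beyond its minimum values. The high Jinyan whole fruit and low Jinyan core that the rule requires still bear on it, so the counts here are descriptions. On a log2 scale set to 0 at the Jinyan core M and 1 at the Jinyan whole fruit M, the mean of the Hongyang log2 values lay at a median of 0.673 over the members. It was below 0 for 1 member, from 0 to 0.5 for 17, from 0.5 to 1 for 28 and above 1 for 12. Without Hongyang whole fruit replicate 1, 2 or 3 the median was 0.744, 0.784 and 0.628, with 12, 15 and 10 members above 1. Compared with Jinyan, the M of Hongyang whole fruit was lower for 44 members and higher for 14, with a median ratio of 0.617. Without replicate 2 it was lower for 34 with a median ratio of 0.901, and without replicate 3 for 48 with 0.505. The M of Hongyang core was higher than that of Jinyan core for 57 members, with a median ratio of 2.91, and Achn262221 was the exception. The rule made this likely through the low Jinyan core and the Hongyang minimum. No share over all genes stands beside the 44 or the 57, and nothing is read from them. All 6 Hongyang libraries exceeded every Jinyan core library in 30 members (51.7%), against 16.4% of all tested genes, and in 41 without Hongyang whole fruit replicate 2, against 18.5%. The Hongyang core libraries lay below every Jinyan whole fruit library in 34 members (58.6%), against 25.5% of all tested genes. Both shares include genes for which the rule made such an arrangement likely.

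The cultivars were compared by the average of both tissues, Hongyang minus Jinyan on the log2 scale. The sampling error of this contrast would be separate from that of the tissue differences only with an equal spread in all groups. That did not hold, since the biological coefficient of variation was 0.514 in Hongyang whole fruit and 0.165 to 0.242 elsewhere. The contrast is also not independent of the rule, since it takes in the low Jinyan core. In addition, the Hongyang minimum removed 16 genes of low Hongyang level, a condition not set on the other tested genes. The counts below are therefore a description of the members. By edgeR's quasi-likelihood test with Benjamini-Hochberg adjustment over all 22199 genes, 25 of the 58 members (43.1%) differed, against 40.9% of all tested genes. The share of members that differed was thus near the background. By direction, 23 members (39.7%) were higher in Hongyang against 23.0% of all tested genes, and 2 (3.45%) were lower against 18.0%. The median difference was 0.72 over the members and 0.11 over all genes. Without the shallow Hongyang whole fruit replicate 3, 20 members were higher against 24.3% of all genes in that fit, 7 were lower against 20.5%, and the median was 0.42. Of the 23 higher members, 10 had a lower M in Hongyang than in Jinyan whole fruit. Among the 142 genes with the same Jinyan conditions and a Hongyang ratio under 0.67, 26.8% were higher and 3.52% lower in Hongyang, and among the 32 with a ratio over 1.5, 59.4% and 3.12%. The difference between these sets was not tested.

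Achn273241 had the largest called difference towards Hongyang, by its fitted value and by its bound. It stood at 29.7, 58.5 and 19.9 CPM in Hongyang whole fruit and at 26.2, 31.1 and 32.5 CPM in Hongyang core. In Jinyan it had 15.2, 11.1 and 15.1 CPM in whole fruit and 0 counts in core. All 6 Hongyang libraries exceeded all 6 Jinyan libraries. With the Jinyan core at 3 counts over its libraries, the cultivar average was at least 5.22 on the log2 scale. This bound was not tested. The edgeR call rests on the core at 0 counts and takes in the depletion that chose the gene, so no p is given.

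Achn266931 had the next largest fitted value, which depends on the prior count because its Jinyan core is at 0. Its bound was 3.91 on the log2 scale, less than the fitted 4.01 of Achn026311. It stood at 26.3, 12.1 and 3.57 CPM in Hongyang whole fruit and at 3.62, 8.91 and 11.5 CPM in Hongyang core. In Jinyan it had 7.08, 12.1 and 8.77 CPM in whole fruit and 0 counts in core. Its Hongyang libraries overlapped with Jinyan whole fruit and lay above the Jinyan core, so its call reflects the core depletion that chose it and no p is given. For this gene, which had 9 counts in Hongyang whole fruit replicate 3, the Hongyang tissues also overlapped.

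The 2 members called lower in Hongyang were Achn262221 and Achn346241. Achn262221, the most abundant member in Jinyan whole fruit, stood there at 464, 445 and 343 CPM and at 115, 97.1 and 107 CPM in Jinyan core. In Hongyang it had 61.6, 55.2 and 19.9 CPM in whole fruit and 20.7, 41.4 and 41.9 CPM in core. All 6 Hongyang libraries were below all 6 Jinyan libraries, and the cultivar average was -2.39 ± 0.26 (SE, log2). That average takes in the Jinyan whole fruit level that the rule required, so no p is given. Achn262221 was the member for which the Hongyang level lay below both Jinyan tissues.

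Achn346241 stood at 16.7, 48.0 and 20.2 CPM in Jinyan whole fruit and at 8.09, 1.76 and 3.37 CPM in Jinyan core. In Hongyang it had 2.91, 2.98 and 1.59 CPM in whole fruit and 0.754, 5.64 and 4.78 CPM in core. The Hongyang values overlapped with the Jinyan core and not with Jinyan whole fruit. The cultivar average was -1.81 ± 0.46 (SE, log2). This call takes in the high Jinyan whole fruit level that chose the gene, so no p is given.

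Achn026311, singled out after its values were seen, lay the farthest above Jinyan whole fruit. It stood at 295, 204 and 221 CPM in Hongyang whole fruit and at 125, 181 and 183 CPM in Hongyang core, against 26.0, 33.8 and 27.6 CPM in Jinyan whole fruit and 6.56, 4.10 and 4.75 CPM in Jinyan core. The 4 groups did not overlap in any pair. The cultivar average was 4.01 ± 0.18 (SE, log2). The gene was picked for its high Hongyang level and the average takes in the low Jinyan core, so no p is given. Its M was 7.75 times higher in Hongyang than in Jinyan whole fruit, under the limit of 8, and 31.6 times higher in core.

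**Figure D5:**
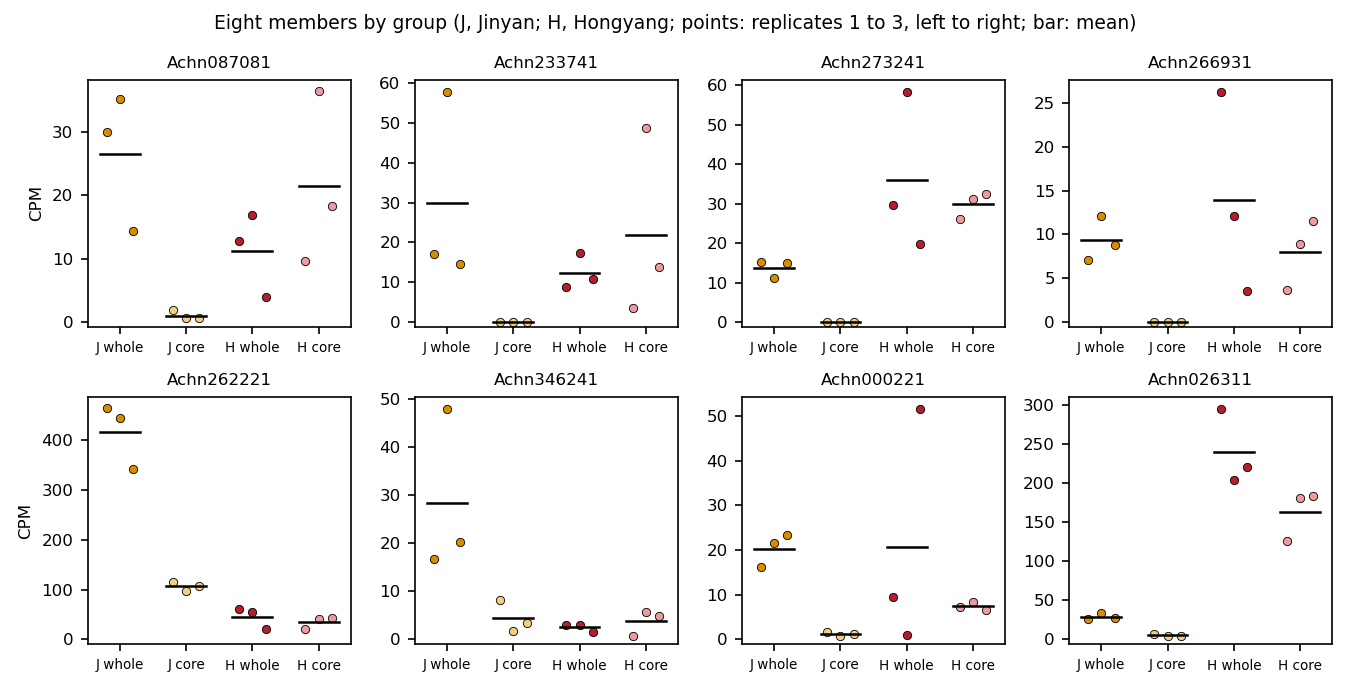
CPM of 8 members in the 4 groups, with replicates 1, 2 and 3 from left to right in each group and the mean as a bar; the vertical axes start near 0 and differ between panels. In all 8 the Jinyan core is below Jinyan whole fruit, whereas the Hongyang level ranges from below both Jinyan groups (Achn262221) to above both (Achn026311).

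The interaction, the Hongyang core difference minus the Jinyan core difference, is what the rule used in another form. The edgeR fit called 24 members (41.4%), each with the larger signed core difference in Hongyang, against 2.25% of all tested genes in either direction, and nothing is read from this share. The other 34 members missed the threshold although their group medians met the rule. Without Hongyang whole fruit replicate 3 the count was 50, against 8.19% of all genes in that fit. It was 10 to 14 without any single Jinyan library, where 0.649% to 0.935% of all genes were called. Without Hongyang whole fruit replicate 1 it was 11, against 1.03% of all genes. It was 10 and 14 without Hongyang core replicates 2 and 3, against 0.688% and 0.841%. The share over all genes was thus also lower in these fits than the 2.25% of the main fit. Of the 32 members with Hongyang whole fruit replicate 3 highest, 7 were called. Of the 10 with replicate 2 highest, 7 were called, and of the 16 with another order, 10. These classes were formed after the fact from libraries that enter the interaction, so the split is a description.

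Membership itself rested on single libraries. With the same rule, 33 genes qualified without Hongyang whole fruit replicate 2, of which 21 were among the 58, and 127 without replicate 3, of which 54 were. When the 58 members were followed without replicate 2, 23 kept a Hongyang ratio between 0.67 and 1.5 and 30 had a lower core, with a median ratio of 0.631. Without replicate 3, 55 kept it and the median ratio was 1.01. Without replicate 1, 33 kept it. In Jinyan, 38 of the 58 kept a ratio of at least 4 without core replicate 2, and 46 to 54 did without another Jinyan library. Of the 58, 4 qualified under each of the 12 single-library omissions.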

How the data were processed

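The deposited values are whole-number counts of reads for each gene, unnormalized, in 12 libraries matched to samples by their description label. The submitters' processing notes name Trimmomatic 0.36, a read trimmer, and HISAT2 2.1.0, an aligner. Not given in the sources used here are the counting program, the genome build and the handling of multiply aligned reads, which leaves counts of similar gene copies uncertain; no strand-marking step is named. Even numbers made up 56.2 to 60.3% of counts from 1 to 20, so counts may not be single fragments.

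Low genes were removed with filterByExpr (4 groups), and the rest were scaled by TMM. They were fitted in edgeR 4.0.16 (R 4.3.3) with 1 quasi-likelihood model of 4 group means (two-sided, Benjamini-Hochberg adjusted p under 0.05). The fit was checked on counts simulated with the same spread in all groups, for the cultivar average and the Jinyan core difference only. That check could not show the effect of a spread that differs between groups. The fit shares a single spread across groups, whereas the biological coefficient of variation per group was 0.514 in Hongyang whole fruit and 0.165 to 0.242 elsewhere. Standard errors are the log2 difference over the root of F. Bounds set 3 counts against a group at 0 and cover counting error only. Replicate pairs all differed by more than sampling noise (chi-square of 5.76 or more per degree of freedom). Alternatives used DESeq2 1.42.0 and limma 3.58.1.

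The members and tests were chosen with earlier results of these data known. The naming rule took the 2 members with the largest Jinyan ratio and the 2 with the largest called cultivar average in each direction.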

Additional observations from a re-analysis of the deposited data

Results flagged for a closer look

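The fitted interaction (Hongyang core minus whole fruit, less the same difference in Jinyan) passed edgeR's threshold in 4 named members, which is why they are listed. The rule chose the members on the same values, so the interaction is a description and no p is given. Its fitted log2 value was 5.49 ± 0.83 (SE) for Achn087081, 12.45 for Achn233741, 10.22 for Achn273241 and 9.08 for Achn266931. The last 3 have 0 counts in Jinyan core, so their fitted values depend on the prior count; against 3 counts the interaction was at least 9.54, 7.10 and 6.07.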

How the results depend on the processing

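The number of members, 58, was 94 with library totals only (37 of them among the 58), 134 and 19 at Jinyan ratios of 3 and 6, 21 and 141 with the Hongyang window narrowed to start at 0.8 and widened to start at 0.5, and 33 to 127 when 1 library was left out; group means gave 50, of which 29 were among the 58. Members called higher in Hongyang numbered 18 to 29 when 1 library was left out, where 19.1% to 24.3% of all genes were called higher. Lower ones numbered 2 to 7, where 15.1% to 21.1% of all genes were called lower. With sample weights, limma voom called 4 lower, against 25.2% of all genes. Members called lower in Jinyan core numbered 45 to 58 when 1 library was left out, where 2.86% to 13.8% of all genes were. Between the Hongyang tissues voom called 4, against 27.5% of all genes. Omission of 1 library gave 0 to 9 there, with 0.758% to 19.2% of all genes called. For the interaction voom called 48, against 13.3% of all genes, and DESeq2 called 35, against 7.23%. Omission of 1 library gave 10 to 50, with 0.649% to 8.19% of all genes called. The cause was not tested. With library totals only, the median of all genes in the cultivar average lay at 0.30 instead of 0.11 and 68.5% of called genes were higher in Hongyang instead of 56.1%. The 4 genes named for the cultivar average kept direction and call in every alternative run. That contrast is not independent of the rule, so these calls are a description. Replicate numbers did not pair the samples. Of 18 same-number correlations of deviations 3 were over 0.1, and 5 of 12 libraries correlated best with their own number. With the replicate block, 23 members were called higher in the cultivar average, against 21.6% of all genes, and 2 lower, against 17.6%. That fit called 58 lower in Jinyan core against 8.4% of all genes, 0 in Hongyang against 3.85%, and 19 in the interaction against 1.97%. Depth limits the values of Hongyang whole fruit replicate 3, where members had a median of 45 counts. The counts without single Hongyang whole fruit libraries for levels, spreads and positions were chosen after seeing the data.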
